A study of Mus musculus with 9 samples.

Results

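The cytosolic ribosomal protein genes were followed across MC38 tumours with and without knockdown of Gad1, the gene for glutamate decarboxylase, which makes GABA from glutamate. They were chosen by gene symbol, with earlier results of these data known. The rule took symbols made of Rps or Rpl with a number and at most a letter or an l1 ending. It also took Rplp0, Rplp1, Rplp2 and Rpsa. The rule matched 84 of the 17134 genes listed. Of these, 83 were ribosomal protein genes, 51 of the large and 32 of the small subunit. The remaining match, Rps6kl1, is named after a kinase family and encodes no ribosomal protein, so it was kept apart. Of the 83 genes, 82 passed the filter on low values (at least 20 normalized reads in 3 libraries), 50 of the large and 32 of the small subunit, and Rpl39l, a copy of Rpl39, did not.

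MC38 is a mouse colon adenocarcinoma line. Cells carrying 1 of 2 lentiviral shRNAs against Gad1 (shA and shB) or a non-targeting shRNA (NTC), all selected with puromycin, were grown under the skin of C57BL/6 mice. Tumours were taken at day 20, and RNA of the whole tumour, host cells included, was sequenced in 3 libraries per group. The labels give no mouse for each tumour, and p-values here speak only for the spread among these 9 libraries, which may be technical in part.

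Cytosolic ribosomes join a large and a small subunit, each built on ribosomal RNA with a single copy of most ribosomal proteins, and their genes are expressed at high levels in all growing cells. Most of the mRNAs begin with a run of pyrimidines, the terminal oligopyrimidine (TOP) motif, through which the kinase complex mTORC1 and the binding protein Larp1 set their translation. The level of such an mRNA does not by itself give the amount of its protein or of ribosomes.

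The libraries held 18373748 to 24918174 reads. Values are normalized reads, read counts divided by 1 size factor per library. Gad1 had 13.1, 23.4 and 50 normalized reads in shA tumours, 21.8, 42.2 and 23.6 in shB tumours, and 281, 265 and 326 in NTC tumours, with an exact two-sided permutation p of 0.0119 over 84 assignments of the libraries. T cell markers (10 of 10) and macrophage markers (9 of 9) rose in the knockdown tumours by limma at an adjusted p under 0.05, where 15.5% of all genes rose and 9.49% fell. Of the fibroblast markers 6 of 8 rose and 1 fell, of the red blood cell markers 4 of 5 fell, of the epithelial markers 1 of 9 rose, and of the 6 endothelial markers none passed by limma. The summed T cell markers ranged over 2246 to 6345 normalized reads in shA, 1771 to 1966 in shB and 323 to 624 in NTC tumours, and the macrophage markers over 54529 to 63397 in shA, 35199 to 49589 in shB and 6438 to 10479 in NTC tumours. The fibroblast markers summed to 14215 to 27398 in shA, 16444 to 36710 in shB and 7887 to 12936 in NTC tumours, and the red blood cell markers to 516 to 2526 in shA, 176 to 1455 in shB and 3402 to 61042 in NTC tumours. None of these markers was at 0 in any library, and their part in the ribosomal protein levels was not tested. In whole tumours, fewer cells of a type and less RNA per cell cannot be told apart, for ribosomal protein genes as for any other.

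Ribosomal protein genes took a share of reads that was alike in the NTC tumours and differed most between single knockdown libraries. They took 12.1%, 8.92% and 9.47% of reads in shA replicates 1 to 3, 5.33%, 9.25% and 9.75% in shB replicates 1 to 3, and 9.03%, 8.82% and 8.55% in NTC replicates 1 to 3. The mean was 10.2% ± 1.71 in shA, 8.11% ± 2.42 in shB and 8.80% ± 0.241 in NTC tumours (SD, n = 3 each). The highest of the 9 libraries was shA replicate 1 and the lowest was shB replicate 1, while the other 4 knockdown libraries lay between 8.92% and 9.75%. The ranges of the groups therefore overlapped.

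Both subunits moved together in the libraries that stood apart. As the difference between a library's log2 value and the NTC mean, the median large-subunit gene stood at 0.54, 0.06 and 0.09 in shA replicates 1 to 3, at -0.91, 0.05 and 0.15 in shB replicates 1 to 3, and at 0.06, -0.00 and -0.08 in NTC replicates 1 to 3. The median small-subunit gene stood at 0.77, 0.08 and 0.16 in shA, at -0.87, 0.13 and 0.27 in shB, and at 0.03, -0.00 and -0.00 in NTC. The ratio of large-subunit to small-subunit reads was 1.42, 1.59 and 1.56 in shA, 1.64, 1.53 and 1.52 in shB, and 1.62, 1.62 and 1.60 in NTC, so shA replicate 1 had the lowest ratio.

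Nearly every gene shared these deviations. Of the 82 genes, 74 had their highest value of the 9 libraries in shA replicate 1, as did 25.5% of all 14600 genes tested. In shB replicate 1, 79 had their lowest value, as did 23.0% of all genes tested. At the median of the 82 genes, shA replicate 1 was 58.3% above the NTC mean. The corresponding median in shB replicate 1 fell by 46.2%. The median of all tested genes in these libraries lay within 0.03 of the NTC mean on the log2 scale, as the size factors make it.

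**Figure D1:**
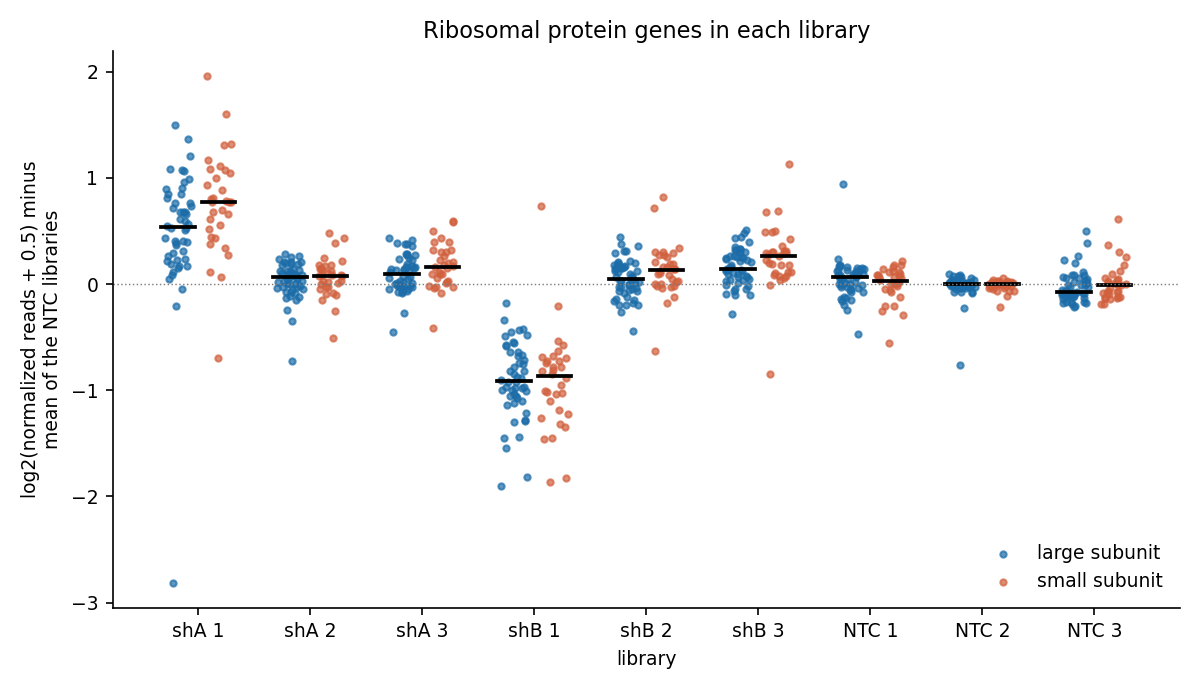
Each point is 1 of the 82 ribosomal protein genes in 1 library, with large and small subunits in separate colours, and the black bars are subunit medians. The vertical axis is the log2 of normalized reads plus 0.5 minus the mean of the 3 NTC libraries. In shA replicate 1 the medians stand at 0.54 and 0.77, in shB replicate 1 at -0.91 and -0.87, and in the other 7 libraries between -0.08 and 0.27.

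The shortest ribosomal protein genes had the largest median deviation in both of these libraries. Coding lengths, taken from a GRCm38 annotation, were found for 80 of the 82 genes. The 10 genes with at most 300 coding bases (Rpl37, Rpl37a, Rpl38, Rpl39, Rpl41, Rps21, Rps27, Rps27l, Rps28 and Rps29) had a median deviation of 1.07 in shA replicate 1 and -1.45 in shB replicate 1. The 28 genes of 301 to 450 bases had 0.77 and -0.997 in these libraries. The 20 genes of 601 to 1000 bases had 0.39 and -0.68, so the deviation shrank with length in both directions.

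Other short genes deviated the same way but less. The 259 other tested genes with at most 300 coding bases had a median deviation of 0.62 in shA replicate 1 and -0.62 in shB replicate 1. Those of 601 to 1000 bases, 2508 genes, had 0.20 and -0.17, and those over 2000 bases, 3914 genes, had -0.31 and 0.19. Within the shortest class the ribosomal protein genes thus lay 0.45 above the other genes in shA replicate 1, and in shB replicate 1 the difference was -0.83. In the other 7 libraries the difference between ribosomal and other genes of that class lay between -0.13 and 0.19. For the classes of 301 to 450, 451 to 600 and 601 to 1000 bases it was 0.33, 0.25 and 0.19 in shA replicate 1. In shB replicate 1 it was -0.48, -0.60 and -0.50. Of the 17134 genes listed, 653 were at 0 in shA replicate 1, 422 in NTC replicate 1 and 48 in shB replicate 1. The other libraries had 25 to 155 genes at 0. Whether RNA quality, library preparation or the tumours themselves set this dependence on length was not tested. Both libraries deviated in other RNA too. Mitochondrially encoded RNA took 6.60%, 1.04% and 1.04% of reads in shA, 1.49%, 1.30% and 1.07% in shB, and 0.931%, 0.491% and 0.699% in NTC tumours. The summed value of 11 skeletal muscle markers was 180, 2065 and 1030 in shA, 10112, 132 and 1714 in shB, and 161, 390 and 120 in NTC tumours, highest in shB replicate 1. Of the 11, 2 were at 0 in shA replicate 1, 4 in shB replicate 2, 6 in NTC replicate 1 and 5 in NTC replicate 3. Endothelial markers summed to 8155 in shA replicate 1, against 1775 to 2977 in the other 8 libraries, and the T cell sum of 6345 was also in shA replicate 1. The highest fibroblast sum, 36710, and the lowest red blood cell sum, 176, were in shB replicate 1. The part of these cell types or of mitochondrial RNA in the ribosomal protein levels was not tested.

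**Figure D2:**
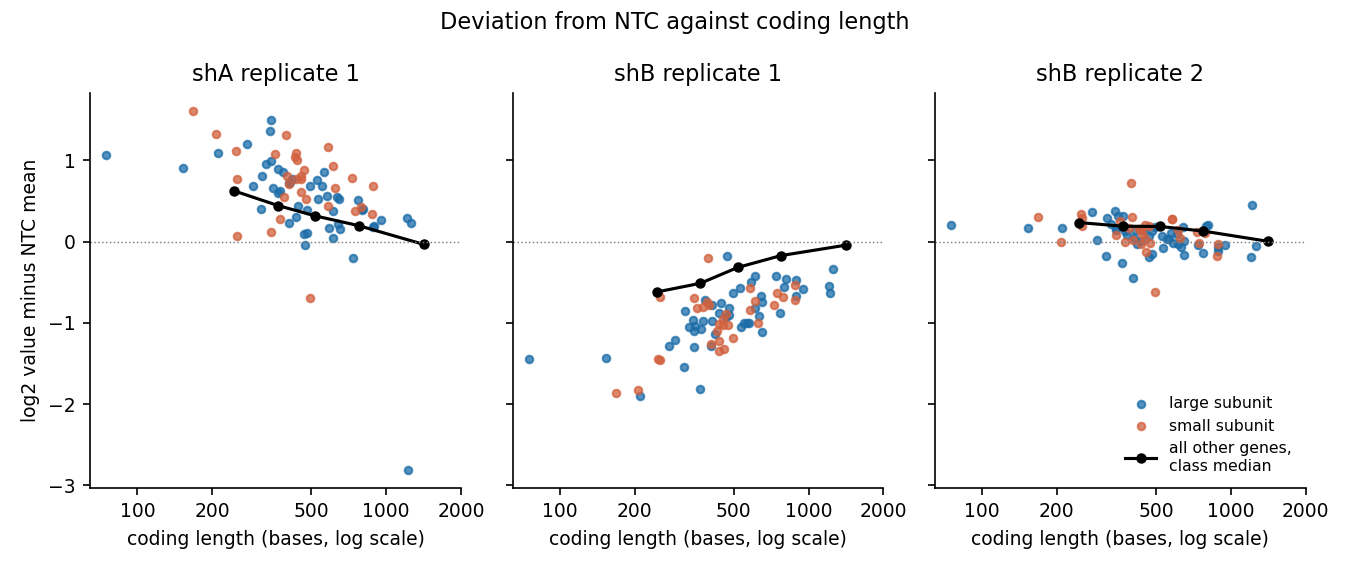
The panels show shA replicate 1, shB replicate 1 and, as a library that does not stand apart, shB replicate 2. Each coloured point is a ribosomal protein gene, placed by coding length in bases (log axis) and by log2 value minus the NTC mean. The black points joined by a line are medians of all other tested genes in each length class up to 2000 bases. They are placed near the middle of the class. Most ribosomal protein genes lie above the line of the other genes in shA replicate 1 and below it in shB replicate 1, the shorter ones farther from 0, and the point at -2.81 in shA replicate 1 is Rpl3l.

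The members of the shortest class show the range. Rps29, a zinc-finger protein of the small subunit, had 16342, 7058 and 8077 normalized reads in shA tumours, 1477, 6634 and 8691 in shB tumours, and 3669, 5160 and 8260 in NTC tumours. Rpl38, a large-subunit protein known for its part in translating Hox mRNAs in the mouse embryo, had 16315, 8750 and 9971 normalized reads in shA tumours, 2064, 8602 and 9648 in shB tumours, and 5539, 7544 and 10909 in NTC tumours. In both genes shB replicate 1 was the lowest and shA replicate 1 the highest library, and the NTC values spread as well, so that the groups overlapped.

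With both shRNAs set against NTC, the median ribosomal protein gene stood near 0, and 1 gene passed the test. By limma with Benjamini-Hochberg adjustment over all genes tested, 0 of 82 rose at an adjusted p under 0.05, where 15.5% of all genes rose, and 1, Rps10, fell, where 9.49% of all genes fell. Unadjusted p by limma was under 0.05 for 3 of the 82 genes, Rps10, Rps12 and Rps4l, and for 5520 of all 14600 genes tested. The median log2 change was 0.04 over the 82 genes, 0.01 over the large and 0.06 over the small subunit, beside -0.03 over all genes tested. With the trend on transcript length removed, the median of the 82 genes was -0.056. Leaving out 1 library at a time moved the median of the 82 genes over -0.07 to 0.21, with the highest value without shB replicate 1 and a value below 0 without shA replicate 1, shB replicate 2 or shB replicate 3. The changes ranged from -0.71 in Rps10 to 0.93 in Rps4l, with 46 above and 36 below 0. Of the other tools, edgeR also gave 0 rising and 1 falling, where 15.2% of all genes rose and 8.74% fell. DESeq2 gave 1 rising, Rps12, and 1 falling, where 18.3% of all genes rose and 12.3% fell.

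**Figure D3:**
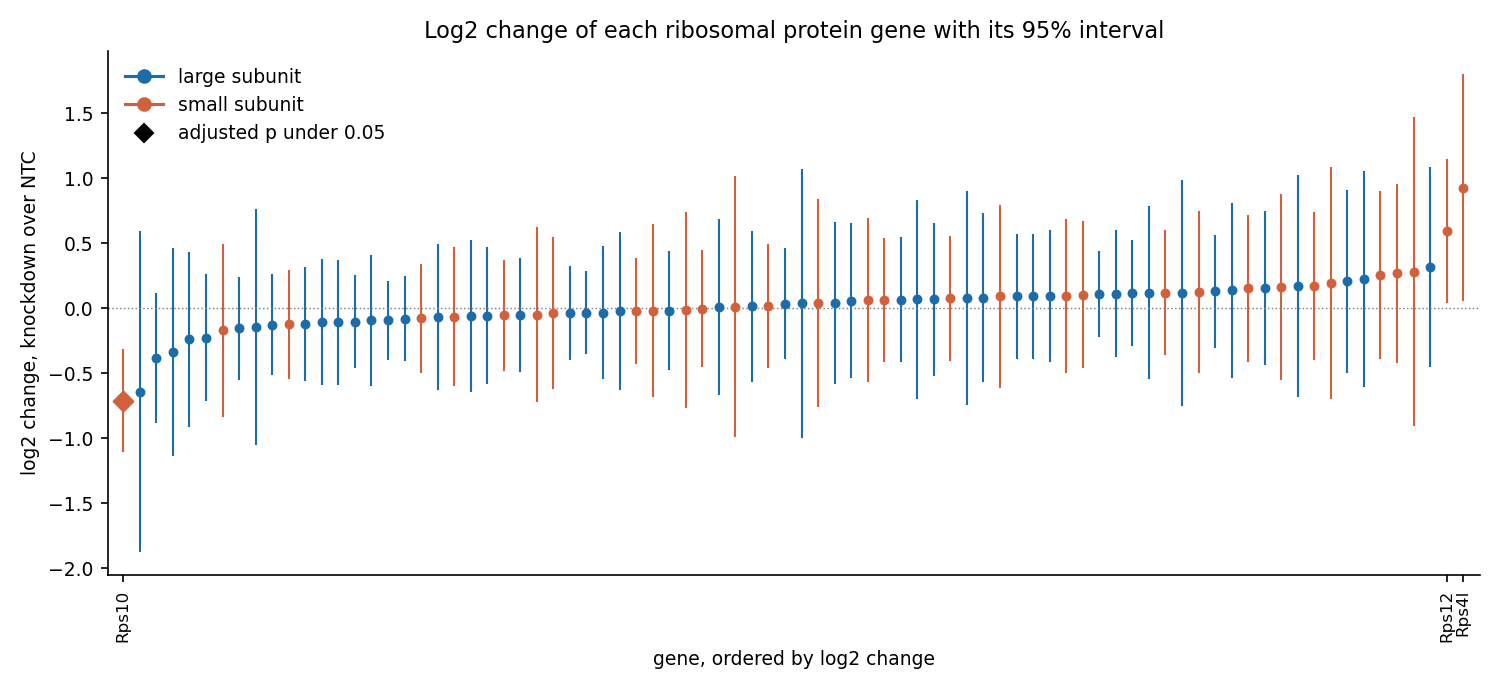
The 82 genes are ordered by their log2 change, the mean of both shRNA groups over NTC, with the 95% interval from limma and the subunit in colour. Rps10, the diamond at the left at -0.71, is the gene with an adjusted p under 0.05, and Rps12 and Rps4l at the right are others whose interval leaves out 0.

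Rps10, a small-subunit protein near the entry of the mRNA channel, was lower in every knockdown tumour than in any NTC tumour. It had 258, 293 and 314 normalized reads in shA tumours, 184, 270 and 232 in shB tumours, and 487, 358 and 416 in NTC tumours. The means were 288 ± 28.1 in shA, 229 ± 43.3 in shB and 420 ± 64.3 in NTC (SD, n = 3 each). Its log2 change was -0.71 (SE 0.17), a 1.64-fold decrease, with a limma adjusted p of 0.0152. The call was lost without NTC replicate 1 (limma adjusted p 0.0850) and without NTC replicate 3 (limma adjusted p 0.0605). Rps10 had few reads for such a gene, with 485 normalized reads per kb of transcript beside a median of 28498 over the 82 genes. How the counting treated near-identical copies of ribosomal protein genes elsewhere in the genome is not stated by the labels or headers, which leaves this level and its change uncertain.

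Rps12, a small-subunit protein known in Drosophila for its role in competition between cells, was higher in 5 of 6 knockdown tumours than in any NTC tumour. It had 62772, 35309 and 38158 normalized reads in shA tumours, 21955, 41665 and 40499 in shB tumours, and 25048, 25405 and 25510 in NTC tumours. The exception was shB replicate 1, the library in which most ribosomal protein genes were lowest, and the NTC values lay close together. Rplp1 and Rplp2 had the same pattern. Of the 82 genes, 74, 29 and 45 were above all NTC values in shA replicates 1 to 3. In shB replicates 2 and 3, 39 and 54 were above, and in shB replicate 1, 80 were below. The share of all genes tested with this pattern was not counted. The log2 change of Rps12 was 0.60 (SE 0.24), with a limma adjusted p of 0.104, so it did not pass. It passed without shB replicate 1, with a limma adjusted p of 0.0128, and with DESeq2, with an adjusted p of 0.0290.

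Rps4l, a copy of Rps4x, was higher in all 6 knockdown tumours than in any NTC tumour, with few reads. It had 98.0, 33.6 and 35.2 normalized reads in shA tumours, 41.8, 44.2 and 55.2 in shB tumours, and 21.4, 24.1 and 29.7 in NTC tumours. Its log2 change was 0.93 (SE 0.39), with a limma adjusted p of 0.110. Rps4l was the only gene of the 82 above all NTC values in every knockdown library, where 16.0% of all genes tested were, and Rps10 the only one below, where 13.6% were.

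Rpl32, a large-subunit protein often used as a reference gene, had 36677, 26363 and 25936 normalized reads in shA tumours, 12872, 22962 and 25731 in shB tumours, and 33889, 30527 and 29565 in NTC tumours. Apart from shA replicate 1 all knockdown values lay below the NTC values. The log2 change of Rpl32 was -0.38 (SE 0.22), with a limma adjusted p of 0.234.

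With each library's median ribosomal protein gene as the yardstick, the shift of that median drops out, but differences between length classes stay. In shB replicate 1 the class medians ran from -1.45 at up to 300 bases to -0.68 at 601 to 1000 bases. In shA replicate 1 they ran from 1.07 to 0.39. On that scale 6 small-subunit genes, among them Rps12, Rps20, Rps24, Rps4l and Rps9, exceeded every NTC value in each of the 6 knockdown libraries, as did 12.1% of all genes tested. Rpl14, Rpl32, Rpl36 and Rps18 were lower in all 6, where 2.73% of all genes tested were. As shares of the 82 genes these were 7.32% and 4.88%, and the yardstick was chosen after the data were seen. Rps12 stood at 1.87, 1.59 and 1.57 times the median gene in shA tumours, at 2.06, 1.85 and 1.69 times in shB tumours, and at 1.15, 1.21 and 1.20 times in NTC tumours. Rpl32 stood at 1.09, 1.19 and 1.07 times in shA tumours, at 1.21, 1.02 and 1.07 times in shB tumours, and at 1.55, 1.45 and 1.39 times in NTC tumours. For both genes the knockdown and NTC libraries were apart, with shB replicate 1 no longer an exception for Rps12.

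Rps9, a small-subunit protein bound early in assembly, stood at 1.81, 1.34 and 1.47 times the median gene in shA tumours, at 1.42, 1.46 and 1.59 times in shB tumours, and at 1.24, 1.29 and 1.27 times in NTC tumours. Refitted on this scale, limma called Rps12 (log2 change 0.57, SE 0.15, adjusted p 0.0276) and no other ribosomal protein gene. Rps10 had -0.73 (SE 0.29) with a limma adjusted p of 0.174, beside an SE of 0.17 before. Its ratio in shB replicate 1, 0.0173, lay within the NTC range of 0.0170 to 0.0223. On this scale 9.43% of all genes rose and 1.37% fell.

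**Figure D4:**
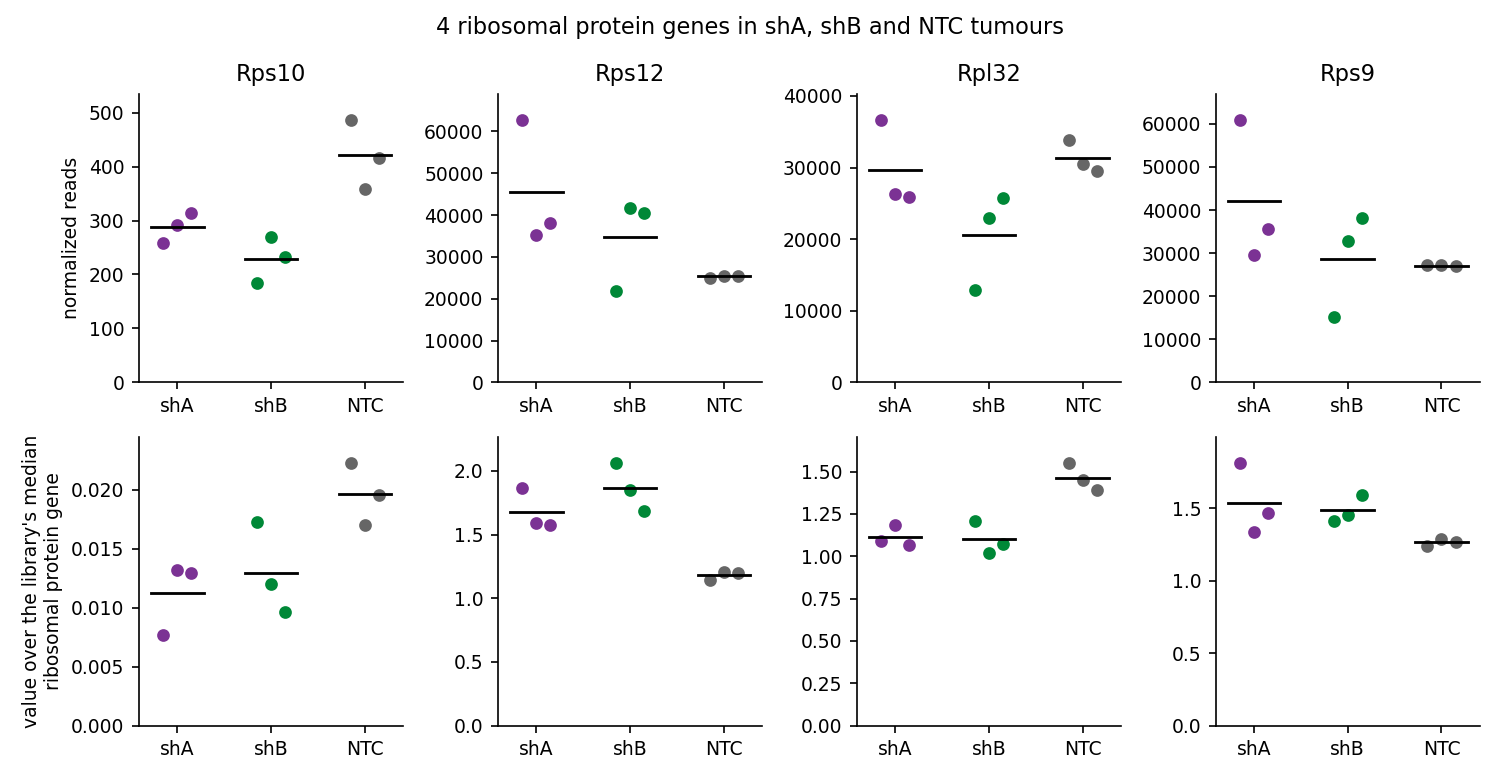
Rps10, Rps12, Rpl32 and Rps9 are shown in normalized reads in the upper row and, in the lower row, divided by the library's median ribosomal protein gene, with 1 point per library and a bar at the group mean. In the lower row the 6 knockdown points of Rps12 and Rps9 lie above, and those of Rpl32 below, the 3 NTC points, while 1 shB point of Rps10 reaches the NTC points.

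Without shA replicate 1 and shB replicate 1, the 2 libraries that stood apart, more ribosomal protein genes passed the test, in a fit chosen after the data were seen. Then 18 of 82 rose, where 24.5% of all genes rose, and 2 fell, Rps10 and Rpl32, where 22.4% of all genes fell. The rising genes were Rpl7a, Rpl10, Rpl30, Rpl34, Rpl35, Rpl35a, Rpl36a, Rpl37a, Rplp1, Rplp2, Rps9, Rps12, Rps13, Rps20, Rps21, Rps23, Rps24 and Rps27. A share of 22.0% rising was near the background. Among them Rps12 had a log2 change of 0.62 (SE 0.06, limma adjusted p 0.000367), Rplp1 0.38 (SE 0.07, limma adjusted p 0.00375) and Rps20 0.32 (SE 0.08, limma adjusted p 0.0113). Rpl32 had -0.31 (SE 0.08, limma adjusted p 0.0112) and Rps10 -0.60 (SE 0.14, limma adjusted p 0.00934).

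The shA tumours against NTC gave no call among these genes. By limma 0 rose, where 11.4% of all genes rose, and 0 fell, where 5.59% fell. An unadjusted p under 0.05 by limma was found for 2 of the 82, Rps10 and Rps12, and for 4905 of all 14600 genes tested. By edgeR 0 rose and 0 fell, where 11.7% of all genes rose and 4.89% fell. By DESeq2 Rps12 rose and Rps10 fell, where 15.3% of all genes rose and 9.17% fell. The median log2 change was 0.26, and 76 of 82 were above 0, beside a median of -0.00 over all genes. Rps12 had 0.79 (SE 0.28, limma adjusted p 0.0803) and Rps10 -0.54 (SE 0.20, limma adjusted p 0.0933). Without shA replicate 1 the median was 0.10, against 0.26 with it, and with the trend on transcript length removed it was 0.046.

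The shB tumours against the same NTC libraries gave 1 call. By limma 0 rose, where 13.4% of all genes rose, and 1 fell, Rps10, where 7.02% fell. EdgeR and DESeq2 also gave 0 rising and 1 falling. Of all genes 13.6% rose and 6.21% fell by edgeR, and 16.5% rose and 9.66% fell by DESeq2. At an unadjusted p under 0.05 limma had 2 of the 82 genes, Rps10 and Rpl32, and 4871 of all 14600 genes tested. The log2 change of Rps10 was -0.88 (SE 0.20), with a limma adjusted p of 0.0127, which became 0.0564 without NTC replicate 1. The median log2 change of the 82 genes was -0.20, with 79 below 0, and Rpl32 had -0.67 (SE 0.25, limma adjusted p 0.0937). Without shB replicate 1 the median was 0.15, so its direction turned on that library. With the trend on transcript length removed it was -0.16. Without both libraries that stood apart, 2 rose with shA (Rplp1 and Rps12) and 0 fell, where 15.9% and 12.4% of all genes did. With shB 14 rose and 2 fell, where 23.5% and 21.6% of all genes did.

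Between the shRNAs no gene of any kind passed by limma with all 9 libraries and no library weights, and 1 of 14483 genes fell without shA replicate 3. With library weights, 5.05% of all genes rose and 4.51% fell, none of them ribosomal protein genes, and DESeq2 called 18 of all genes rising and 5 falling. For shA versus shB, 0 ribosomal protein genes rose and 0 fell, where 0.0% of all genes did, and edgeR and DESeq2 gave 0 and 0 as well. By limma 3 of the 82 (Rpl22, Rpl32 and Rpl6l) had an unadjusted p under 0.05, as did 1010 of all 14600 genes tested. The median log2 difference, shA over shB, was 0.47, and 81 of 82 were above 0. The largest were Rps29 at 1.15 (SE 0.61), Rps28 at 1.07 (SE 0.51) and Rpl38 at 1.02 (SE 0.53), all of the shortest class, each with a limma adjusted p of 0.680. Without both libraries that stood apart the median was -0.05, and with the trend on transcript length removed it was 0.21.

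The stalk proteins Rplp0, Rplp1 and Rplp2, which recruit elongation factors to the large subunit, differed in how far they followed the shared deviation. Rplp0 had 88045, 70570 and 73642 normalized reads in shA, 49113, 71053 and 78722 in shB tumours, and 86248, 72049 and 63543 in NTC tumours. Rplp1 had 74834, 35407 and 37316 in shA, 14890, 37666 and 41246 in shB, and 27555, 28958 and 30754 in NTC tumours. Rplp2 had 56402, 22053 and 24172 normalized reads in shA tumours, 8164, 22425 and 23743 in shB tumours, and 19414, 19821 and 20895 in NTC tumours. Against NTC, Rplp1 and Rplp2 were above all NTC values in 5 knockdown libraries and below in shB replicate 1, whereas Rplp0 was above in 1. No test of their log2 changes, -0.05 for Rplp0, 0.32 for Rplp1 and 0.17 for Rplp2, passed, with limma adjusted p of 0.869, 0.525 and 0.778. Rpsa, which is also known as a laminin receptor, had 84300, 52782 and 49702 normalized reads in shA tumours, 36187, 51262 and 55397 in shB tumours, and 58592, 51984 and 47693 in NTC tumours.

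Per kb of transcript, the highest levels over all libraries in the large subunit were those of Rplp1, Rpl13 and Rpl41, at 73174, 58495 and 54198 normalized reads per kb. In the small subunit they were those of Rps12, Rps24 and Rps15, at 71437, 59533 and 51534 per kb. The lowest were Rpl6l and Rpl24 at 44.0 and 47.5 per kb, and Rps4l and Rps10 at 49.2 and 485 per kb. Rpl24, a protein of the intersubunit bridge, had 31.6, 35.5 and 23.8 normalized reads in shA, 28.7, 28.5 and 30.4 in shB, and 63.1, 19.1 and 28.8 in NTC tumours. The low levels of Rpl24, Rps10 and Rpl13a (1597 per kb) set them apart from the other subunit genes that are not copies, and how reads shared with near-identical sequences were counted was not tested.

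The tissue-restricted or duplicated copies are given here beside their parents. Rpl22l1, a copy of Rpl22, had 2015, 1052 and 1271 normalized reads in shA tumours, 380, 1114 and 1253 in shB tumours, and 1510, 1291 and 1224 in NTC tumours. Its log2 change was -0.33 (SE 0.36, limma adjusted p 0.527), and that of Rpl22 was 0.11 (SE 0.21, limma adjusted p 0.738). Rpl3l, the copy of Rpl3 that striated muscle uses, had 12, 52.3 and 86.1 in shA, 55.7, 119 and 81.1 in shB, and 77.7, 74.3 and 114 in NTC tumours. Rpl3l was lowest in shA replicate 1, and it was not raised in shB replicate 1, which had the highest muscle marker sum. Rps27l and Rps27 had log2 changes of 0.08 (SE 0.21) and 0.04 (SE 0.36), Rpl7l1 and Rpl7 of -0.09 (SE 0.13) and 0.12 (SE 0.18), and Rpl3 of -0.10 (SE 0.16). Rps4x, the parent of Rps4l, had -0.00 (SE 0.20), and Rpl39, the parent of Rpl39l, 0.08 (SE 0.37). None of these passed the test. Rpl39l had 5.22 to 38.3 normalized reads across the libraries and was not tested. The kinase-like Rps6kl1, matched by its letters, had 38.3 to 91.0 and a log2 change of 0.29 (SE 0.35, limma adjusted p 0.573).

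Promoters were compared with the TOP motif and with 3 motifs of core promoters. RefSeq promoter windows on GRCm38.p6, from 250 bases before to 50 after each start, matched 61 of the 83 genes. A run of C followed by at least 4 C or T on the gene's strand, beginning within 5 bases of the annotated start, was found in 29 of 61 (47.5%), and in 21.2% of 27025 genes. CCGGAAG, the ETS family motif, was searched like the others below on both strands and was found in 25 of 61 (41.0%), and in 9.93% of all genes. AAGATGGC, the YY1 motif, was found in 6 (9.84%), and in 3.19% of all genes. TATAAA was found in 7 (11.5%), and in 15.7% of all genes. The sequences below, 50 bases before to 25 after the start, 5′ to 3′, are shown for 4 of the genes whose level relative to the median ribosomal protein gene set knockdown apart from NTC libraries, and for Rps10, the gene that fell. Capitals mark the pyrimidine run that met the TOP rule. Rps12 lies at chr10:23787185-23787259 on the minus strand, Rps9 at chr7:3703991-3704065 on the plus strand, Rps18 at chr17:33955641-33955715 on the minus strand, Rpl14 at chr9:120571467-120571541 on the plus strand and Rps10 at chr17:27635220-27635294 on the minus strand.
Rps12: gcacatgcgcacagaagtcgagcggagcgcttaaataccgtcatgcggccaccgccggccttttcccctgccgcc
Rps9: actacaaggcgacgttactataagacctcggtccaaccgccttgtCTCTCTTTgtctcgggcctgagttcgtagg
Rps18: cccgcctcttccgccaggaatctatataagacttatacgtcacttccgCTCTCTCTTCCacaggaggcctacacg
Rpl14: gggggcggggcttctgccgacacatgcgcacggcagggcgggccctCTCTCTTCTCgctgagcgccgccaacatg
Rps10: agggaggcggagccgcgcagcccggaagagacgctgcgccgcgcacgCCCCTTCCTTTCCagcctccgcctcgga

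Of these, Rps9, which was higher relative to the median gene, and Rps18, Rpl14 and Rps10, which were lower or fell, hold such a run, and the Rps12 window holds none by this rule, although pyrimidine runs lie further downstream. A match describes the letters in this window and is no measure of how the mRNA starts in these tumours.

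Other genes of ribosome production were taken from lists of known members. Fau, which encodes the small-subunit protein eS30 fused to a ubiquitin-like protein and is left out by the symbol rule, had 31848, 13203 and 14817 normalized reads in shA, 6375, 14045 and 15363 in shB, and 12664, 11843 and 12434 in NTC tumours. It was highest in shA replicate 1 and lowest in shB replicate 1, and did not pass the test or have an unadjusted p under 0.05, also by edgeR and DESeq2, with a limma adjusted p of 0.663. Without shA replicate 1 and shB replicate 1 it rose, where 24.5% of all genes did.

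In this comparison, knockdown against NTC, 15.5% of all genes rose and 9.49% fell by limma, and the counts of the lists stand beside these shares. Of all 14600 genes tested, 5520 had an unadjusted p under 0.05 by limma, and the lists' counts at that threshold stand beside this number. Of 20 other genes with TOP mRNAs, mostly translation factors, 0 rose and 1 fell by limma, with 2 at an unadjusted p under 0.05. Nap1l1, a histone chaperone, had 13393, 13450 and 13305 normalized reads in shA, 11388, 13610 and 12623 in shB, and 16692, 16868 and 16480 in NTC tumours. All 6 knockdown values lay below all NTC values, with a log2 change of -0.37 (SE 0.10, limma adjusted p 0.0215). The list's median change was 0.03, and Hnrnpa1, an RNA-binding protein, had -0.27 (SE 0.12, limma adjusted p 0.125). By DESeq2 Hnrnpa1 fell, where 12.3% of all genes did. The long noncoding RNA Gas5 had 10151, 6578 and 6562 in shA, 3684, 6496 and 6696 in shB, and 4370, 4420 and 5262 in NTC tumours, with a limma adjusted p of 0.147.

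Of 13 genes that control the translation of TOP mRNAs, 0 rose and 3 fell by limma, with a median log2 change of -0.41 and 8 at an unadjusted p under 0.05. Without the 2 libraries that stood apart 8 of the 13 fell, where 22.4% of all genes fell. Mlst8, a subunit of mTORC1, had 181, 222 and 202 normalized reads in shA, 230, 168 and 189 in shB, and 372, 288 and 277 in NTC tumours, without overlap. Its log2 change was -0.65 (SE 0.18, limma adjusted p 0.0240). Rps6kb1, the S6 kinase, and Rptor, the subunit that binds mTORC1 substrates, changed by -0.52 (SE 0.16, limma adjusted p 0.0421) and -0.51 (SE 0.16, limma adjusted p 0.0428). Rptor had 2197 normalized reads in shB replicate 1, above the NTC values of 2086, 2045 and 2095, and 1110 to 1435 in the other knockdown libraries.

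Of 38 genes of nucleolar ribosome assembly, 0 rose and 2 fell by limma, with a median of -0.11. An unadjusted p under 0.05 by limma was found for 8 of the 38, and for 5520 of all 14600 genes tested. Nob1, the nuclease that finishes small-subunit RNA, had -0.37 (SE 0.11, limma adjusted p 0.0335), and Nat10, which acetylates ribosomal RNA, had -0.43 (SE 0.14, limma adjusted p 0.0447). Of 14 genes of RNA polymerase I and its factors 0 passed by limma and edgeR, 1 rose by DESeq2, and 3 had an unadjusted p under 0.05 by limma. The list's median was -0.08, and Twistnb and Taf1d had the smallest p (limma adjusted p 0.0911 and 0.0924). Of 77 mitochondrial ribosomal protein genes 0 passed by limma, edgeR or DESeq2, with 2 at an unadjusted p under 0.05 by limma and a median of 0.04. Their median deviation was 0.16 in shA replicate 1 and -0.55 in shB replicate 1, so the rise of the cytosolic genes in shA replicate 1 was not matched there to the same size. The differences between these lists were not tested. Without shA replicate 1 and shB replicate 1, when 24.5% of all genes rose and 22.4% fell, 21 of the mitochondrial genes rose and 0 fell, 7 of the assembly genes rose and 9 fell, 2 of the polymerase genes rose and 4 fell, and 4 of the other TOP genes rose and 3 fell. Each of the 6 calls in these lists was lost without at least 1 NTC library, at limma adjusted p of 0.0537 to 0.191. All 6 were also lost with the replicate number as a block, at limma adjusted p of 0.0502 to 0.0857. When scaled on the median ribosomal protein gene they were lost at 0.384 to 0.619. That scaling passes each library's ribosomal protein deviation on to every gene. The 6 log2 changes were -0.39 to -0.67 on that scale, beside -0.37 to -0.65 in the main fit.

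**Figure D5:**
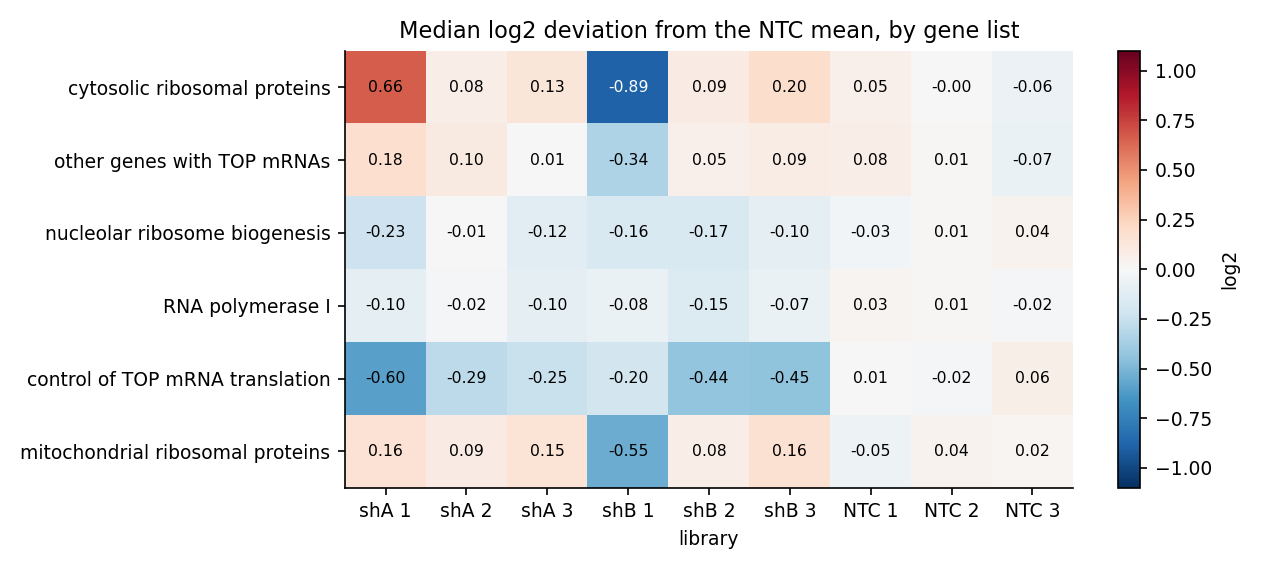
Each cell gives the median deviation of a gene list in a library from the NTC mean, on the log2 scale, with libraries in columns. The cytosolic ribosomal protein row stands at 0.66 in shA replicate 1 and -0.89 in shB replicate 1, the row of genes that control TOP mRNA translation is below 0 in all 6 knockdown libraries, at -0.20 to -0.60, and the NTC columns lie within 0.08 of 0.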

How the data were processed

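The deposited values are a signal per gene and library, read from the values themselves as read counts divided by 1 median-of-ratios size factor per library, since per the file headers a file holds only a gene and a value. The submitters' processing notes name Cuffdiff 2.2.1 and mm9 without their roles. Which aligner, counter, strand option and gene models were used was not given in the sources used here. In R 4.3.3, limma 3.58.1 was fitted to log2(value + 0.5) of all 9 libraries with a trended prior, and p-values were adjusted by Benjamini-Hochberg over the 14600 of 17134 genes with at least 20 normalized reads in 3 libraries. Log2 changes are on that scale and understate changes of low genes. Depth was 18373748 to 24918174 reads per library, with 3 libraries per group. The 3 comparisons with NTC share its libraries. The alternatives, 24 settings, covered the pseudocount, filter, scaling, prior, library weights, groups fitted, a replicate block, edgeR 4.0.16, DESeq2 1.42.0, a transcript length trend and libraries left out, and 2 of them were added after the data were seen. The test was also run on simulated data with known changes. The genes named were those called, those with the 4 largest and 4 smallest changes of each comparison, those with the highest and lowest levels per kb, the stalk genes, Rpsa, listed copies with their parents, and the genes with the smallest p of each related list. Members and lists were chosen with earlier results of these data known. Rps9, Rps18, Rps20, Rps24, Rpl14 and Rpl36 were named after their values were seen, and some genes are not reported here by name. Promoter sequences are from RefSeq tables. Lengths are from a GENCODE annotation of GRCm38, used for the length classes, the levels per kb and the fit with the length trend removed.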

Additional observations from a re-analysis of the deposited data

Results flagged for a closer look

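Rpl6l, a low gene named as a copy of Rpl6, had every shA library above and every shB library below the NTC mean. It had 74.1, 42.1 and 42.6 normalized reads in shA tumours, 17.4, 30.5 and 33.8 in shB tumours, and 36.1, 33.1 and 35.5 in NTC tumours. The log2 difference, shA over shB, was 0.949 (SE 0.39), and the test of that difference by limma gave an adjusted p of 0.680, so it did not pass.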

How the results depend on the processing

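Counts of ribosomal protein genes that passed moved under several settings. With both shRNAs versus NTC, 13 rose and 2 fell with library weights, 18 and 2 without both of these libraries, 1 and 4 with the length trend removed, and 1 and 0 when scaled on the median ribosomal protein gene; DESeq2 gave 1 rising. Of all genes 30.7% rose and 29.7% fell with library weights, 24.5% and 22.4% without both libraries, 18.3% and 11.4% with the length trend removed, and 9.43% and 1.37% when scaled on the median gene. By DESeq2 18.3% of all genes rose and 12.3% fell. For shA versus NTC, 2 rose with library weights, 2 without both libraries, and 1 each with DESeq2, the length trend removed or only the groups compared in the fit, and 1 fell with DESeq2 and with the length trend removed. For shB versus NTC, 18 rose and 2 fell with library weights, 14 and 2 without both libraries, 1 and 4 with the length trend removed, and 1 and 0 when scaled on the median gene. Of all genes 34.0% rose and 33.4% fell there with library weights, 23.5% and 21.6% without both libraries, 15.9% and 9.39% with the length trend removed, and 10.6% and 0.767% when scaled on the median gene. For shA the weights called 21.6% of all genes rising and 19.9% falling, and the fit without both libraries 15.9% and 12.4%. DESeq2 called 15.3% rising and 9.17% falling for shA, and the fit with the length trend removed 13.9% and 6.73%. With only the groups compared in the fit, 12% of all genes rose and 8.83% fell for shA. The median log2 difference between shA and shB, 0.47, became 0.055 with library weights, 0.21 with the length trend removed, -0.054 without both libraries and -0.081 when scaled on the median gene, and the cause was not tested. The weights did not reach convergence. Leaving out 1 library at a time, 0 to 2 ribosomal protein genes rose and 0 to 1 fell with both shRNAs. Of all genes 10.2% to 20.6% rose and 3.58% to 17.3% fell in these fits. With shA and with shB, 0 to 1 ribosomal protein genes rose and 0 to 1 fell. Of all genes 7.16% to 15.6% rose and 1.57% to 12% fell there with shA. With shB 9.08% to 16.6% rose and 3.27% to 12.8% fell. The shA to shB median of the ribosomal protein genes ranged over 0.13 to 0.68. The Rps10 change stayed below 0 in all 24 settings. Replicate numbers did not pair the libraries, with correlations of same-numbered libraries from -0.34 to 0.06, and the replicate block left the counts at 0 rising and 1 falling for both shRNAs and for shB, while the 6 calls in the related lists were lost under it (limma adjusted p 0.0502 to 0.0857). The pseudocount, filter, TMM, library total and prior settings gave no other counts of ribosomal protein genes. In the related lists, scaling by library total lost Nat10, Rps6kb1 and Rptor (0.0707 to 0.0729), a prior without trend lost these and Nob1 (0.0616 to 0.0717), and edgeR lost Rptor (0.0517). Leaving out a knockdown library lost Nat10 and Rptor without shA replicate 1, these and Rps6kb1 without shB replicate 3, these and Nob1 without shA replicate 3, and these and Mlst8 without shB replicate 2 (limma adjusted p 0.0556 to 0.0907). Other settings added calls. Of the 13 genes that control TOP mRNA translation, 5 fell with DESeq2, 6 with the length trend removed and 8 with library weights. Without shB replicate 1, 7 of them fell and 17 of 77 mitochondrial genes rose, where 17.3% of all genes fell and 20.6% rose. With library weights 25 mitochondrial genes rose and 8 fell. Rps4l, Rpl24, Rpl3l and Rpl6l have few reads, and whether depth limits their tests was not tested.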
